A study of Mus musculus with 18 samples.

Results

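The genes described here are 46 type I interferon response genes, found by their symbols among the 23420 genes listed for each of 18 RNA-seq libraries of mouse splenic B cells. They fall into 10 families. The Ifit family holds 4 genes, the Oas family 7, the Mx family 2, the sensors of nucleic acid and enzymes acting on double-stranded RNA 7, the transcription factors 3 and the ISG15 system 4. The other families are the PARP, DTX3L and TRIM genes (4), the nucleotide and RNA enzymes (4), the membrane and secreted proteins (5) and the other effectors (6). Of the 46 genes, 45 had a level over 0 log2 CPM (read counts scaled to library size, as log2) in at least 3 of the libraries fitted and were tested. Oas1g was not tested, since its levels lay between -5.58 and -2.6 log2 CPM in the 18 libraries.

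All B cells came from MRL/lpr mice, a lupus-prone strain homozygous for the lpr mutation of Fas, and were purified by negative selection on beads. The sample information gives 5 to 7 weeks of age for all mice, while the paper's methods give 5 weeks for the females. In the first arm, cells of female mice labelled Tlr9+/- Tlr7-/- (Tlr9het below) and Tlr997 Tlr7-/- (Tlr997 below) were cultured for 4 h, either alone or with CpG, an oligonucleotide that activates TLR9, at 10 µg/ml. Both genotypes are labelled as lacking Tlr7, and Tlr997 stands for a TLR9 whose signaling TIR domain was exchanged for that of TLR7. In the second arm, cells of male mice labelled Tlr779 Tlr9-/- (Tlr779 below), in which TLR7 has received the TIR domain from TLR9, were cultured for 4 h, either alone or with CL097, which activates TLR7, at 5 µg/ml. Each of the 6 groups had 3 replicates, from 3 mice per genotype. Sample titles give the first genotype as Tlr9+/-, while the treatment protocol writes Tlr9-/- Tlr7-/-; the titles were followed, and every genotype difference below rests on that label. Libraries of a Tlr7WT Tlr9-/- control were not analysed here.

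Type I interferons include a single interferon beta and many interferon alphas, which bind the receptor made of IFNAR1 and IFNAR2. The kinases on that receptor phosphorylate transcription factors such as STAT2, which acts with IRF9 at interferon-stimulated response elements in the promoters of the genes described here. Their products recognize or degrade foreign nucleic acid, modify proteins, or, like IRF7 and STAT2, feed the response back, and their raised expression in blood cells is a known mark of lupus. In B cells, TLR7 and TLR9 recognize RNA and DNA in endosomes and signal through MYD88 and their TIR domains.

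The values were log2 CPM after quantile normalization by the authors, and they summed to between 991992 and 1004412 CPM per library, so the depth of each library is unknown. Of 6209 genes below -4 log2 CPM in all libraries, 6008 held a single value within each replicate number across the groups, and for 524 of these that value differed between the numbers, so the lowest values can carry an offset that goes with the number. Replicates correlated across 11564 genes with Pearson's r between 0.95 and 0.99, and 0 pairs of libraries were identical. Tlr7 was between 2.68 and 4.28 log2 CPM in Tlr9het and between 4.81 and 5.36 in Tlr997, both labelled Tlr7-/-, against 6.61 to 7.82 in Tlr779. Tlr9 was between 6.93 and 7.47 log2 CPM in the libraries labelled Tlr779 Tlr9-/- and between 7.02 and 8.08 in the first arm, so its gene level does not set the libraries with the Tlr9-/- label apart. By design Tlr997 carries the TIR sequence of Tlr7 and Tlr779 that of Tlr9, and their share in these levels was not tested. In these bulk samples, fewer cells of a type and less RNA per cell cannot be told apart. The p-values measure the spread between these samples only.

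The response element that joins these genes was looked for in their promoters, taken from the RefSeq annotation of GRCm38.p6 as 300 bases (250 before and 50 after each transcript start). The motif searched, on both strands, was GAAA followed by any 2 bases (NN) and a further GAAA, counting overlapping matches. It was present in 17 of the 34 members with a promoter window against 1079 of 27025 genes (3.99%). Mx1, Mx2, Usp18, Oas1b, Oas2, Dhx58, Zbp1, Parp9, Parp14, Ly6e, Rtp4 and Tor3a had no window. These 8 matches are shown because they stand for the families on which the comparisons below turn; each is 30 bases, read 5′ to 3′ on the strand that holds the motif, with the motif in capitals. Ifit1 (chr19:34640794-34640823, minus strand), Ifit3 (chr19:34583397-34583426, minus), I830012O16Rik, which RefSeq names Ifit3b (chr19:34607793-34607822, minus), Oas1a (chr5:120907520-120907549, minus), Isg15 (chr4:156200871-156200900, minus), Stat2 (chr10:128270266-128270295, minus), Ddx58 (chr4:40239804-40239833, plus) and Ifi203 (chr1:173942508-173942537, minus) read as follows.
Ifit1: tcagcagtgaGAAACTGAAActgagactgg
Ifit3: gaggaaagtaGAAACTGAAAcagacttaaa
I830012O16Rik: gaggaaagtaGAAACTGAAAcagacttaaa
Oas1a: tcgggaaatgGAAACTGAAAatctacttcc
Isg15: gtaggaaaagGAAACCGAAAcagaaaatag
Stat2: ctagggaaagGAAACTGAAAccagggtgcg
Ddx58: ctggccatagGAAATCGAAActgcctcagg
Ifi203: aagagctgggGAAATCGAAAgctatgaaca

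The match of Ifit1 begins at -85 from the transcript start, and those of Ifit3 and I830012O16Rik at -122 and -154, in identical 30-base stretches. Isg15 held 3 overlapping matches, the most of any member. By family the motif was in 3 of 4 Ifit genes, 3 of 5 Oas genes with a window, 4 of 5 sensors and enzymes, 1 of 3 transcription factors and 1 of 3 genes of the ISG15 system. Ifit2, Irf7, Irf9, Uba7, Herc6, Helz2 and Samd9l were among the members with a window but without this run of letters. The matches describe the sequence and say nothing of binding in these cells. The 46 genes lie on 17 chromosomes, and 18 of them lie within 200 kb of another member. Beside the pairs named below, Phf11b and Rtp4 share 26.8% and 12.4% of their 75-base stretches with other genes, and Stat2, Adar, Eif2ak2, Rtp4 and Ifit1 overlap a neighbouring gene, so their counts are less certain. The 4 Ifit genes stand side by side on chromosome 19, from Ifit2 (chr19:34550550-34576534) to Ifit1 (chr19:34640889-34650009).

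The median SD of these genes over replicates was above that of all genes tested in each of the 6 groups, least so in Tlr9het with CpG, and libraries within a group stood apart together. In unstimulated Tlr9het, 44 of 45 members were lowest in replicate 3, and their median SD was 0.35 log2, against 0.11 over all genes tested. The mean level over the members there was 6.58, 6.58 and 5.87 log2 CPM for replicates 1, 2 and 3. With CpG the same genotype had a median SD of 0.11 against 0.09 over all genes, and the members' means were 6.09, 6.05 and 6.13. Unstimulated Tlr997 had a median SD of 0.29 against 0.18, and Tlr997 with CpG had 0.19 against 0.12, with 36 of 45 members lowest in replicate 3. In unstimulated Tlr779 the median SD was 0.34 against 0.13, with 42 members highest in replicate 1. With CL097 it was 0.71 against 0.15. All 45 tested members were lowest in replicate 2 of that group and 44 of them highest in replicate 3, with means of 7.07, 6.09 and 7.53 log2 CPM for replicates 1, 2 and 3.

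The families shared these shifts to different degrees. The Ifit family had a median SD of 0.73 log2 in unstimulated Tlr9het, 0.13 in Tlr9het with CpG, 0.44 in unstimulated Tlr997, 0.40 in Tlr997 with CpG, 0.80 in unstimulated Tlr779 and 1.35 in Tlr779 with CL097. Its family mean in the CL097 libraries ran from 5.25 log2 CPM in replicate 2 to 8.07 in replicate 3. The PARP, DTX3L and TRIM genes lay at 0.30, 0.08, 0.11, 0.11, 0.26 and 0.63 in the same order of groups, and the transcription factors at 0.22, 0.05, 0.20, 0.10, 0.33 and 0.65. Rsad2, which encodes viperin, was the most variable member in unstimulated Tlr9het and unstimulated Tlr997, with SDs of 1.18 and 1.09 log2. Adar, an enzyme that deaminates adenosine in double-stranded RNA, was the least variable in Tlr997 with CpG and in unstimulated Tlr779, with SDs of 0.03 and 0.15.

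**Figure D1:**
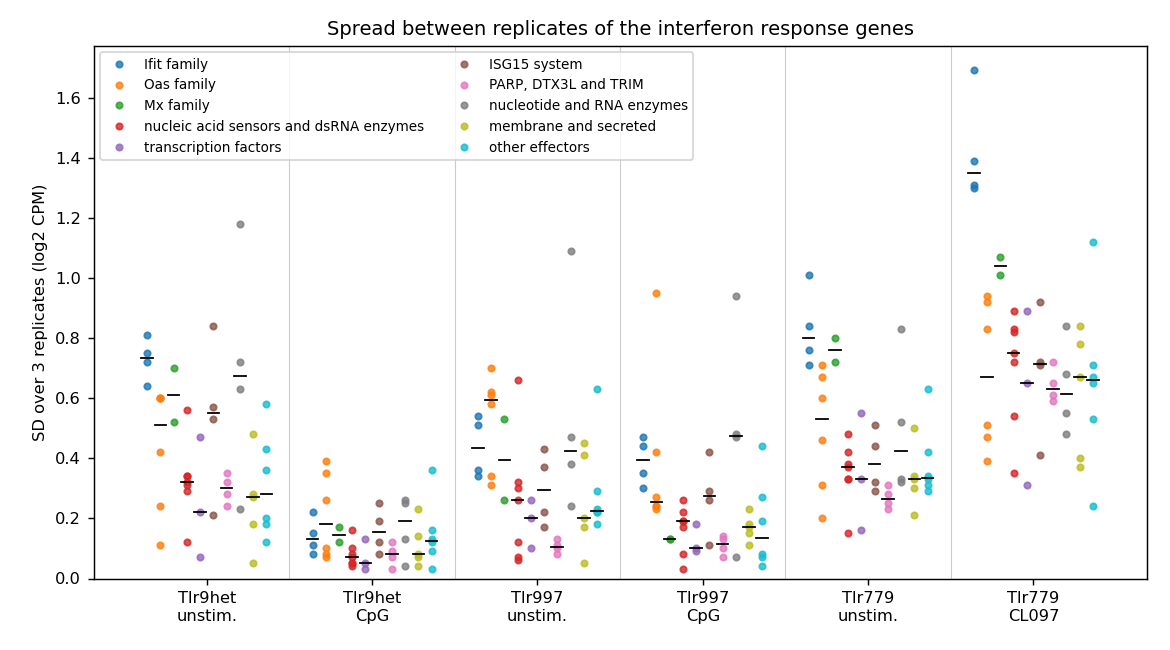
SD over the 3 replicates (log2 CPM, vertical axis) of each tested member (points, colored by family) in the 6 groups (horizontal axis), with a black line at each family's median. The points of Tlr9het with CpG lie at or below 0.39 and those of Tlr779 with CL097 reach 1.69, with the Ifit family highest.

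**Figure D2:**
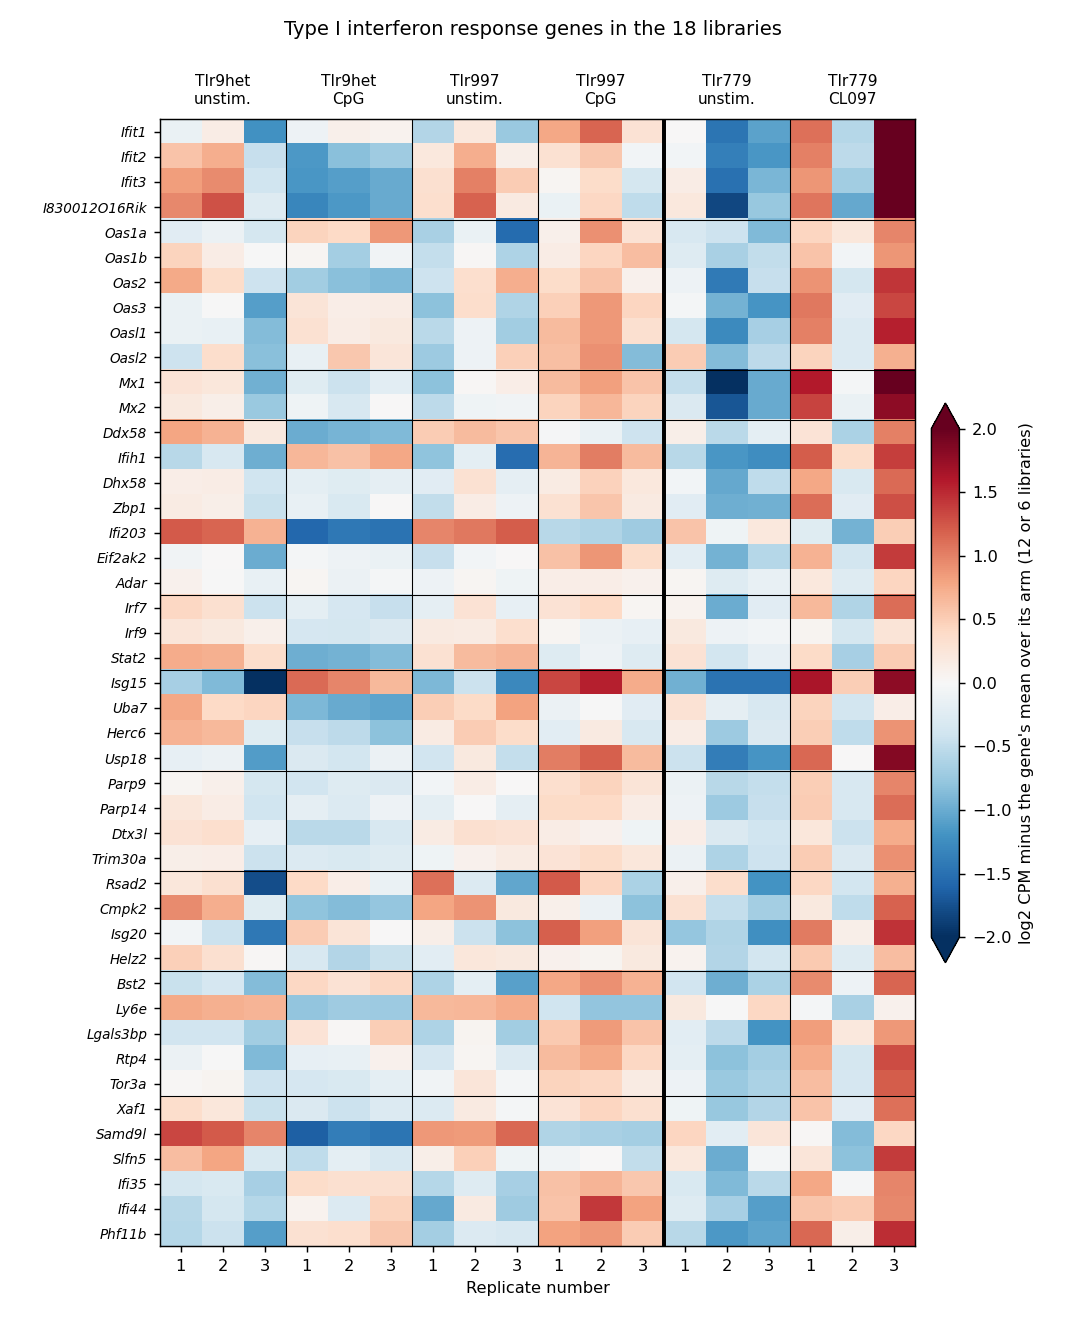
Log2 CPM of the 45 tested members (rows, families separated by lines) in the 18 libraries (columns, by group and replicate number), each minus the gene's mean over the 12 libraries of the first arm or the 6 of the second; colors stop at 2 in either direction. Replicate 3 of unstimulated Tlr9het is lower than its 2 partners in 44 rows, and replicate 2 of Tlr779 with CL097 is the lowest of its group in all 45.

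To find which families differed by TIR domain after the same stimulus, the CpG-stimulated libraries of Tlr997 and Tlr9het were compared. In Tlr997, 15 of the 45 members were higher and 0 lower by limma, where a call needed a log2 difference over 0.5 in size and a p under 0.05 after Benjamini-Hochberg adjustment over all genes. Of the 11494 genes tested, 1.25% were called higher and 1.47% lower. The difference was above 0 for 44 of 45 members, with Oas1a at -0.13 the exception, and its median was 0.56 log2 (0.00 over all genes tested). For 35 members the 3 Tlr997 libraries all lay above the 3 of Tlr9het, a pattern shown by 14.6% of all genes tested. The median differences were 1.09 for the Ifit family, 0.81 for Mx, 0.67 for the ISG15 system, 0.58 for the transcription factors, 0.54 for the PARP, DTX3L and TRIM genes, 0.52 for the nucleotide and RNA enzymes, 0.50 for the sensors and enzymes, 0.50 for the other effectors, 0.42 for the membrane and secreted proteins and 0.40 for the Oas family. Every family held a member above 0.5, and the called members came from 9 of the 10 families.

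Among the Ifit genes, whose products bind foreign RNA, 2 of 4 were higher in Tlr997. Ifit2 was at 7.03, 7.27 and 6.68 log2 CPM in Tlr997 with CpG and at 5.58, 5.89 and 6.02 in Tlr9het with CpG. The groups did not overlap, and the log2 difference was 1.16 (SE 0.27, limma adjusted p 0.022). Ifit3 was at 6.28, 6.60 and 5.89 in Tlr997 against 5.07, 5.13 and 5.22 in Tlr9het, differing by 1.12 (SE 0.30, limma adjusted p 0.043). The call of neither was independent of single libraries, as given below. Ifit1 and I830012O16Rik differed by 0.72 and 1.07 without passing the threshold (limma adjusted p 0.25 and 0.11), although neither overlapped between the groups. With the replicate number as a block, I830012O16Rik was called at the same difference (limma adjusted p 0.025). That block joins same-numbered libraries of different mice, and whether a number marks anything shared between the genotypes is not known. The same limit holds for the block calls of Irf7 and Rtp4 below. Ifit3 and I830012O16Rik share 41.1% and 35.7% of their 75-base stretches with each other, so the division of reads between them is uncertain.

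The Oas family, named for enzymes that make the oligoadenylates which activate RNase L, was split. Oas2 was at 4.07, 4.28 and 3.80 log2 CPM in Tlr997 with CpG and at 3.02, 2.88 and 2.82 in Tlr9het with CpG. All 3 Tlr997 libraries were higher, and Oas2 differed by 1.15 (SE 0.30, limma adjusted p 0.04). Oas1b, Oas3 and Oasl1 differed by 0.64, 0.42 and 0.39 without passing, and their groups did not overlap. Oasl2 and Oas1a, at 0.01 and -0.13, overlapped. Oas1a shares 47.6% of its 75-base stretches with Oas1g, and Oas1b is annotated as a transcribed pseudogene in this assembly, as are Mx1 and Mx2. The Mx genes encode dynamin-like GTPases. Mx1 was at 7.03, 7.21 and 6.96 in Tlr997 and at 6.15, 5.96 and 6.19 in Tlr9het with CpG, so that its groups were separate, yet its difference of 0.97 (SE 0.29) did not pass (limma adjusted p 0.078). The difference of Mx2 was 0.65 (limma adjusted p 0.091).

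Of the sensors and enzymes acting on double-stranded RNA, 2 of 7 were higher. Ifi203, a DNA-binding PYHIN protein (chr1:173920400-173942866), was at 7.46, 7.42 and 7.31 log2 CPM in Tlr997 and at 6.45, 6.59 and 6.54 in Tlr9het with CpG. The groups stood apart, and Ifi203 differed by 0.87 (SE 0.11, limma adjusted p 0.00085). Ddx58, which encodes RIG-I (chr4:40203777-40239825), was at 7.62, 7.52 and 7.24 against 6.66, 6.71 and 6.77, and it differed by 0.74 (SE 0.13, limma adjusted p 0.0046). Eif2ak2 (the kinase PKR), Zbp1 (a sensor of Z-form nucleic acid) and Dhx58 (LGP2) differed by 0.71, 0.50 and 0.48, and Adar by 0.16, all without overlap and without passing. Ifih1, which encodes MDA5, differed by 0.10 and overlapped.

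Stat2 (chr10:128270498-128292853) was the only transcription factor called, of 3. It was at 6.93, 7.08 and 6.93 log2 CPM in Tlr997 and at 6.21, 6.24 and 6.31 in Tlr9het with CpG, and every Tlr997 library was higher. Its difference was 0.72 (SE 0.11, limma adjusted p 0.0022). Irf7, which drives interferon alpha transcription, differed by 0.58 (limma adjusted p 0.11, and 0.025 with the replicate block) and Irf9 by 0.24, below the fold threshold (limma adjusted p 0.049).

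In the ISG15 system, which attaches the ubiquitin-like ISG15 to proteins, 2 of 4 were higher. Usp18, which removes ISG15 and restrains the interferon receptor (chr6:121245906-121270917), was at 6.88, 7.06 and 6.50 log2 CPM in Tlr997 and at 5.58, 5.50 and 5.74 in Tlr9het with CpG. No library of one group reached the other, and its difference of 1.21 (SE 0.25, limma adjusted p 0.012) was the largest of the 45 members. Uba7, the activating enzyme of this system (chr9:107975567-107984056), was at 5.25, 5.36 and 5.14 against 4.47, 4.36 and 4.31, and it differed by 0.87 (SE 0.12, limma adjusted p 0.0014). The ligase gene Herc6 differed by 0.48 without passing; 22.4% of its 75-base stretches are shared with Gm45193. Isg15 itself was at 6.70, 6.92 and 6.11 in Tlr997 and at 6.50, 6.34 and 6.01 in Tlr9het with CpG, so its groups overlapped, and it differed by 0.29 (limma adjusted p 0.74).

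The PARP, DTX3L and TRIM genes had the highest share of members called, 3 of 4. Parp9, whose product acts in a complex with that of Dtx3l, was at 8.35, 8.46 and 8.26 log2 CPM in Tlr997 and at 7.62, 7.75 and 7.72 in Tlr9het with CpG. Its groups did not overlap, and the difference was 0.66 (SE 0.10, limma adjusted p 0.0023). Trim30a and Dtx3l differed by 0.57 and 0.51, and Parp14, at 0.49, did not pass (limma adjusted p 0.052). Parp9 (chr16:35938470-35972621) and Dtx3l (chr16:35926515-35939027) overlap at their ends, and the strand setting of the counting is not given in the sources used here. In the remaining families Helz2 (a helicase, 0.56), Tor3a (a torsin, 0.62), Xaf1 (0.67) and Samd9l (0.85) were called, while Rsad2, Cmpk2, Isg20, Bst2, Ly6e, Lgals3bp, Rtp4, Slfn5, Ifi35, Ifi44 and Phf11b, between 0.08 and 0.85, were not. Rtp4 was called with the replicate block, at 0.68 (limma adjusted p 0.033). Samd9l (chr6:3372257-3399571), which encodes an inhibitor of translation and cell growth, was at 7.12, 7.07 and 7.03 log2 CPM in Tlr997 and at 6.08, 6.33 and 6.26 in Tlr9het with CpG. Its 3 Tlr997 libraries lay close together above the others, and it had the smallest adjusted p of the members (SE 0.10, limma adjusted p 0.00038).

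**Figure D3:**
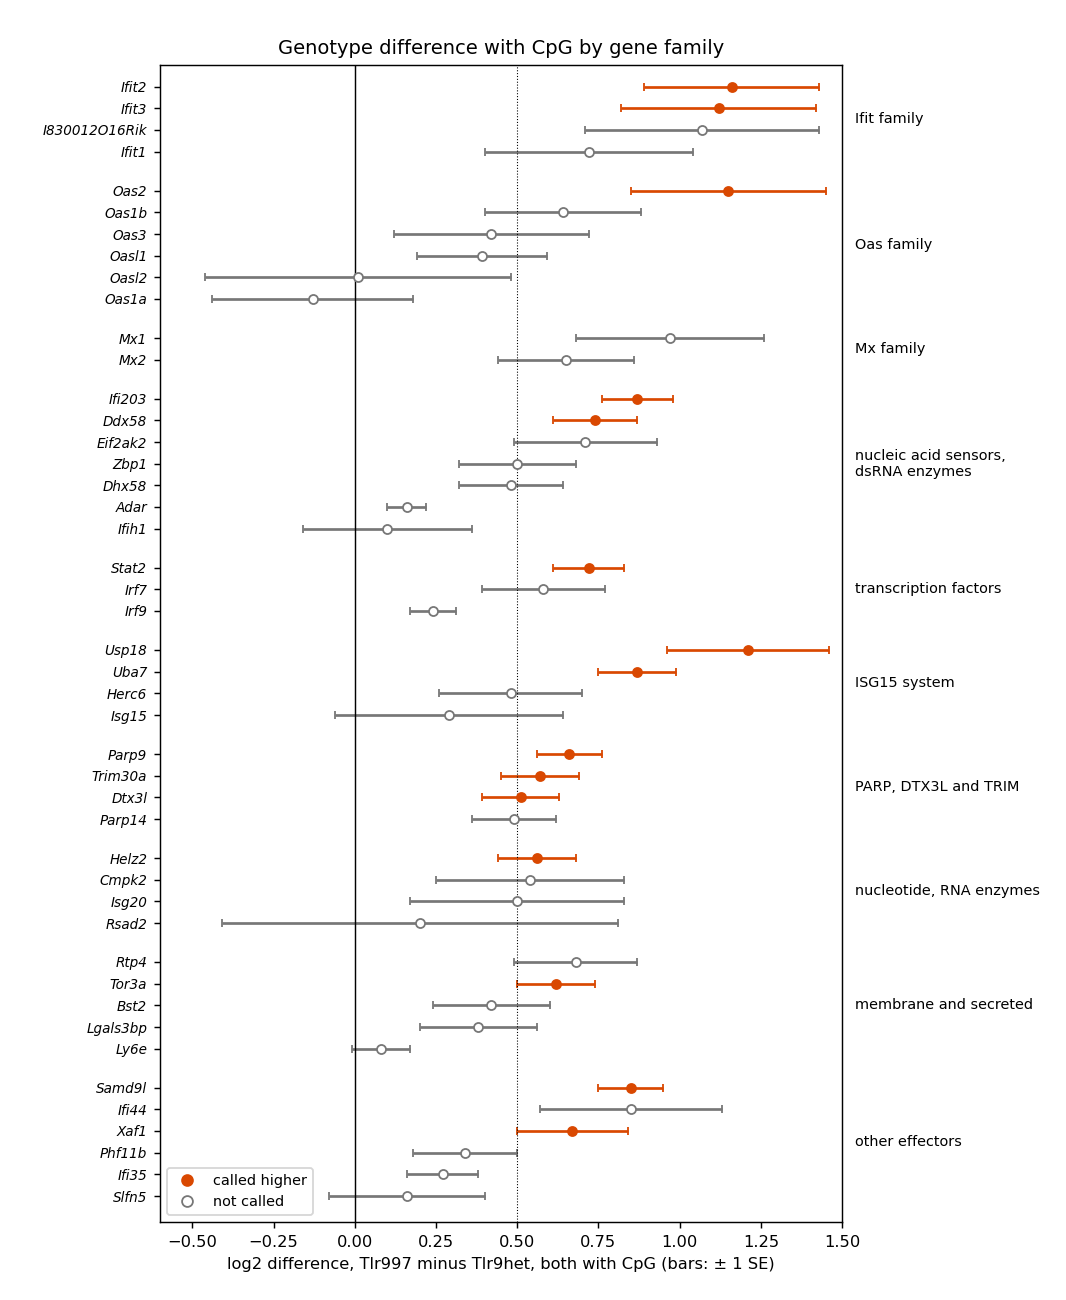
Log2 difference between Tlr997 and Tlr9het, both with CpG (horizontal axis, points with bars of 1 SE), for the 45 tested members by family (vertical axis), with the 15 called members filled and a dotted line at the 0.5 threshold. The 4 Ifit genes lie between 0.72 and 1.16, and the Oas family runs from -0.13 to 1.15.

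How many of these calls depended on 1 library was examined by leaving out each of the 6 CpG libraries in turn. The count fell from 15 to 10, 8 and 12 without replicate 1, 2 or 3 of Tlr997, and to 7, 7 and 9 without replicate 1, 2 or 3 of Tlr9het. Between 0.725% and 1.06% of all genes were called higher in these fits. Ddx58, Ifi203, Stat2, Uba7, Parp9 and Samd9l kept their calls in all 6 fits. Oas2 (1.03 to 1.27 log2) and Xaf1 (0.62 to 0.70) lost theirs in each. Ifit2 (1.02 to 1.32) and Ifit3 (0.95 to 1.30) held only without replicate 3 of Tlr997. Trim30a (0.53 to 0.60) lost its call without replicate 2 of Tlr997 or any 1 of the Tlr9het libraries, and Dtx3l (0.46 to 0.58) without replicate 1 or 2 of either genotype. Helz2 (0.50 to 0.63) lost it without replicate 3 of either genotype or replicate 2 of Tlr9het, Usp18 (1.08 to 1.37) without replicate 2 of either or replicate 1 of Tlr9het, and Tor3a (0.59) without replicate 1 of Tlr9het. Other models of the same values gave between 2 calls, with all 18 libraries fitted together, and 26, with array quality weights. Of all genes, 0.882% and 2.04% were called higher in those models.

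Markers of several cell types moved with the same comparison. The summed level of 6 B cell markers was between 11.34 and 11.63 (log2 of the summed CPM) in Tlr997 with CpG and between 10.69 and 10.75 in Tlr9het with CpG, with 3 of 6 called higher. For marginal zone B cells, 3 of 6 markers were called higher and the sums overlapped, at 7.81 to 8.12 against 7.72 to 7.87. For plasmacytoid dendritic cells, known as strong producers of interferon, the sum was 7.72 to 7.77 against 7.18 to 7.25, with 1 of 4 tested markers called higher, and the defining markers Klk1 and Cox6a2 were below 0 log2 CPM in all 6 libraries. No marker of T cells, macrophages, neutrophils, erythroid cells, NK cells, plasma cells or age-associated B cells was called in either direction. Over all genes tested, 1.25% were called higher and 1.47% lower. The part of these markers in the result was not tested.

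Before stimulation no separation of the genotypes was found over these genes with all 12 libraries fitted. Of the 45 members, 0 were called by limma in either direction and 2 had an unadjusted p under 0.05, beside 0.0174% of all genes called higher and 10.8% with an unadjusted p under 0.05. The differences ran from -0.55 to 0.38 log2 with a median of 0.00, and no member had groups that did not overlap, against 6.59% of all genes higher and 6.99% lower without overlap. Ifit2, for example, was at 6.94, 7.46 and 6.84 log2 CPM in unstimulated Tlr997 and at 7.29, 7.46 and 6.27 in unstimulated Tlr9het. Those groups overlapped.

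The comparison with CpG shares its Tlr9het libraries with the CpG response of Tlr9het, and its Tlr997 libraries with that of Tlr997, so the responses are given side by side. With CpG in Tlr9het, 9 of 45 members were higher and 16 lower, against 29.7% and 28.2% of all genes tested, and the median change was -0.17. In Tlr997, 18 were higher and 7 lower, against 29.6% and 26.0%, with a median of 0.33. With the replicate block within genotype, Oas3 and Ifi44 were also called higher in Tlr9het (0.59 and 0.57, limma adjusted p 0.017 and 0.0038), and Ifit3 and I830012O16Rik lower in Tlr997 (-0.58 and -0.64, limma adjusted p 0.035 each). The responses of the 2 genotypes were measured in separate libraries. All 9 members raised in Tlr9het were also raised in Tlr997, and all 7 that fell in Tlr997 also fell in Tlr9het. How often calls nested in this way among all genes was not counted. The fitted changes had opposite signs for 13 of 45 members (28.9%), against 1052 of 11494 genes (9.15%).

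Cell type markers moved with CpG as well. Of 6 B cell markers, 5 were lower and 1 higher in Tlr9het (median -2.01) and 3 lower in Tlr997 (median -1.37), and their summed level was between 12.43 and 12.66 in the unstimulated libraries, above the levels given for the CpG libraries. Of 6 marginal zone markers 5 were lower in each genotype, and of the 4 tested markers of plasmacytoid dendritic cells 2 were lower in each. Age-associated B cell markers were higher for 3 of 5 in Tlr9het and 4 of 5 in Tlr997, and NK cell markers for 2 and 3 of the 4 tested. Among all genes tested 29.7% were higher and 28.2% lower in Tlr9het, and 29.6% and 26.0% in Tlr997. Of the 5 tested plasma cell markers 3 were lower and 1 higher in each genotype. The part of these markers in the responses was not tested.

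Higher in both genotypes were Oas1a, Oasl1, Ifih1, Isg15, Isg20, Bst2, Lgals3bp, Ifi35 and Phf11b, and none of these was called between the genotypes with CpG. Isg15 (chr4:156199424-156200818) went from 4.70, 4.48 and 3.15 log2 CPM to 6.50, 6.34 and 6.01 in Tlr9het, and from 4.46, 4.93 and 4.07 to 6.70, 6.92 and 6.11 in Tlr997. Every stimulated library lay above all unstimulated ones of its genotype, and the rise was 2.18 (SE 0.35, limma adjusted p 7.1e-05) and 2.09 (SE 0.35, limma adjusted p 0.00011). Ifih1 rose by 1.29 in Tlr9het and 1.62 in Tlr997. The calls in Tlr9het of Oas1a, Isg20 and Oasl1 depended on single libraries. Oas1a was at 0.65 without replicate 3 with CpG and lost its call in 5 of 6 such fits, all but the one without replicate 2 with CpG. Isg20 and Oasl1 were at 0.50 and 0.36 without replicate 3 of unstimulated Tlr9het, and Isg20 was also lost without replicate 1 or 2 with CpG, at 0.77 and 0.90.

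Raised in Tlr997 but not called in Tlr9het were Ifit1, Oas1b, Oas3, Mx1, Mx2, Eif2ak2, Usp18, Rtp4 and Ifi44. Mx1 went from 5.57, 6.42 and 6.52 log2 CPM to 7.03, 7.21 and 6.96 in Tlr997, and from 6.66, 6.62 and 5.43 to 6.15, 5.96 and 6.19 in Tlr9het. The stimulated Tlr997 libraries all lay above the unstimulated ones, and it rose there by 0.89 (SE 0.29, limma adjusted p 0.015), and changed by -0.14 in Tlr9het (limma adjusted p 0.68). The call of Mx1 in Tlr997 was lost without replicate 1 of unstimulated Tlr997, at 0.59, and that of Oas3 without the same library or without replicate 2 with CpG, at 0.71 and 0.81. Usp18 rose by 1.18 (SE 0.25, limma adjusted p 0.00076) in Tlr997, against 0.21 in Tlr9het. Being called in one genotype and not in the other does not show that the responses differed; that test is given below.

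Lower in Tlr9het and not called in Tlr997 were Ifit2, Ifit3, I830012O16Rik, Oas2, Irf9, Herc6, Dtx3l, Helz2 and Slfn5. Ifit2 went from 7.29, 7.46 and 6.27 log2 CPM to 5.58, 5.89 and 6.02 in Tlr9het, where it fell by 1.18 (SE 0.27, limma adjusted p 0.0014), and from 6.94, 7.46 and 6.84 to 7.03, 7.27 and 6.68 in Tlr997, a change of -0.09. Ifit3 and I830012O16Rik fell by 1.56 and 1.80 in Tlr9het and changed by -0.58 and -0.64 in Tlr997. The call of Slfn5 in Tlr9het was lost without replicate 1 or 2 of the unstimulated group or replicate 1 with CpG, at -0.58, -0.50 and -0.63. Irf9, at -0.50, lay at the fold threshold and was lost without replicate 1 or 2 of either group, at -0.47 to -0.50.

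Lower in both were Ddx58, Ifi203, Stat2, Uba7, Cmpk2, Ly6e and Samd9l. Samd9l went from 9.05, 8.94 and 8.70 log2 CPM to 6.08, 6.33 and 6.26 in Tlr9het and from 8.58, 8.56 and 8.87 to 7.12, 7.07 and 7.03 in Tlr997. Neither genotype's groups overlapped, and it fell by 2.67 and by 1.60 (SE 0.10 each, limma adjusted p 4.9e-11 and 7.9e-09). Ifi203 fell by 2.53 and 1.70, and Stat2 by 1.53 and 0.74. Ly6e, a membrane-anchored protein, fell by 1.46 and 1.35, nearly alike, and it was not called between the genotypes. Of these 7 genes, 5 were called between the genotypes with CpG, and the fitted fall of each was smaller in Tlr997. The call of Cmpk2 in Tlr997 was lost without replicate 2 of the unstimulated group or replicate 3 with CpG, at -0.76 and -0.63. The 11 members left, which were called in neither genotype, were Oasl2, Dhx58, Zbp1, Adar, Irf7, Parp9, Parp14, Trim30a, Rsad2, Tor3a and Xaf1.

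**Figure D4:**
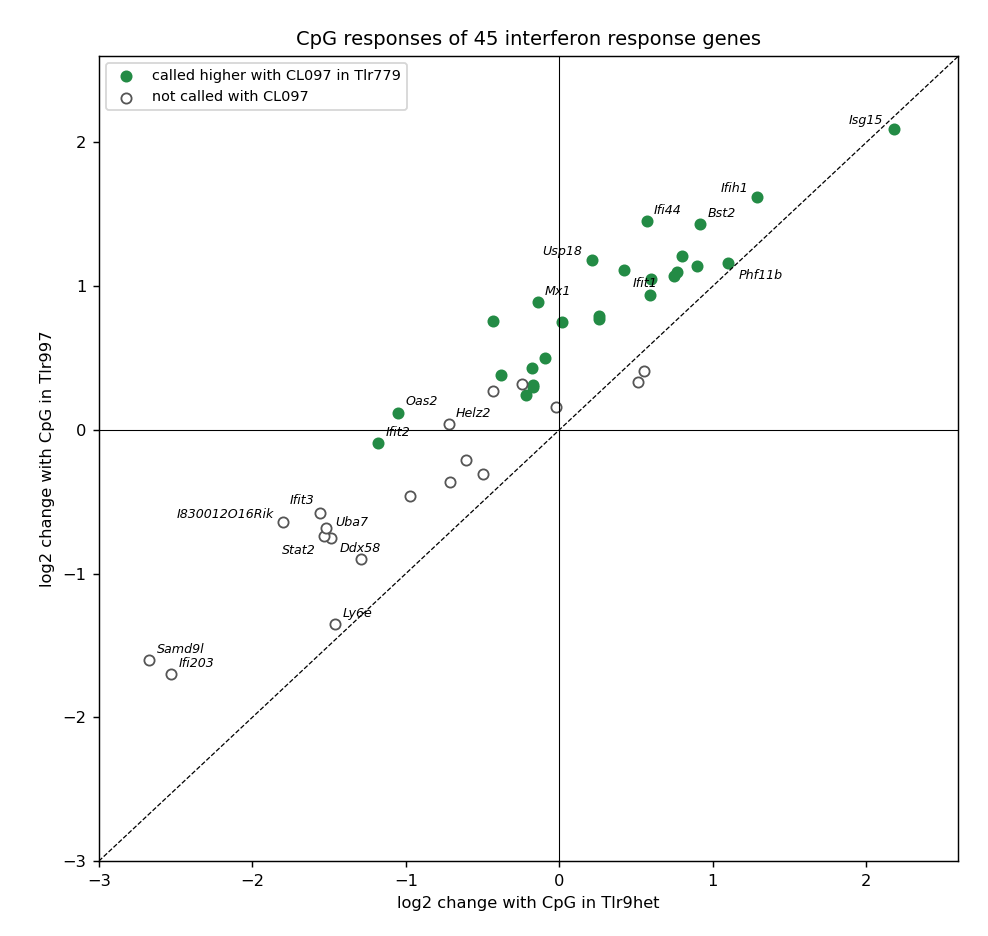
Log2 change with CpG in Tlr9het (horizontal axis) and in Tlr997 (vertical axis) for the 45 tested members, filled where the gene was called higher with CL097 in Tlr779; the dashed line marks equal changes. Of the 45 points 42 lie above that line. Along the horizontal axis the points run from Samd9l at -2.67 and -1.60, above the line, to Isg15 at 2.18 and 2.09, below it.

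The difference of the CpG responses, Tlr997 minus Tlr9het, was then tested itself. It passed for 5 of 45 members, all higher, against 0.687% of all genes tested called higher and 0.853% lower, and its median was 0.52 log2 (0.01 over all genes). Samd9l differed by 1.08 (SE 0.14, limma adjusted p 0.0021), Uba7 by 0.84 (SE 0.17, limma adjusted p 0.029), Ifi203 by 0.82 (SE 0.16, limma adjusted p 0.022), Stat2 by 0.79 (SE 0.16, limma adjusted p 0.022) and Helz2 by 0.77 (SE 0.17, limma adjusted p 0.042). Of these genes 4 fell with CpG in both genotypes and Helz2 was called lower in Tlr9het alone. No gene of the Ifit, Oas or Mx families was called, although the family medians were 1.03, 0.43 and 0.88. Oas1b, at 1.19, had the largest difference of all members and did not pass (limma adjusted p 0.097). With a replicate block within each genotype, 10 members were called, all higher, against 1.39% of all genes called higher. Pairing by number was inferred from correlations in these data for Tlr9het and is not shown for Tlr997. The block added Ddx58 (0.73), Parp9 (0.55), Ifi44 (0.88), Irf7 (0.70) and Oas1b (1.19), at limma adjusted p between 0.021 and 0.045. In the same comparison 2 of 6 B cell markers (median 0.55), 1 of 4 tested plasmacytoid dendritic cell markers and 1 of 6 marginal zone markers were called higher and no marker lower, and their part in it was not tested.

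The count of 5 rested on single libraries. It rose to 19 without replicate 3 of unstimulated Tlr9het, the library in which 44 members were lowest. It was 1 without replicate 1 of unstimulated Tlr9het or without replicate 1 or 3 of Tlr9het with CpG, and 2 without replicate 2 of unstimulated Tlr9het, replicate 2 of Tlr9het with CpG, or replicate 1 or 2 of Tlr997 with CpG. In the 12 fits without 1 library, 0.288% to 1.25% of all genes were called higher. Samd9l alone kept its call in all 12 fits, with differences from 1.00 to 1.18. Over the same fits Uba7 lay between 0.72 and 0.96, Ifi203 between 0.72 and 0.99, Stat2 between 0.68 and 0.92 and Helz2 between 0.63 and 0.89. By replicate number, the median change over the members in Tlr9het was -0.39, -0.43 and 0.22 for numbers 1, 2 and 3, with 15, 12 and 27 of 45 members rising. In Tlr997 it was 0.54, 0.32 and 0.29, with 32, 30 and 28 rising.

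**Figure D5:**
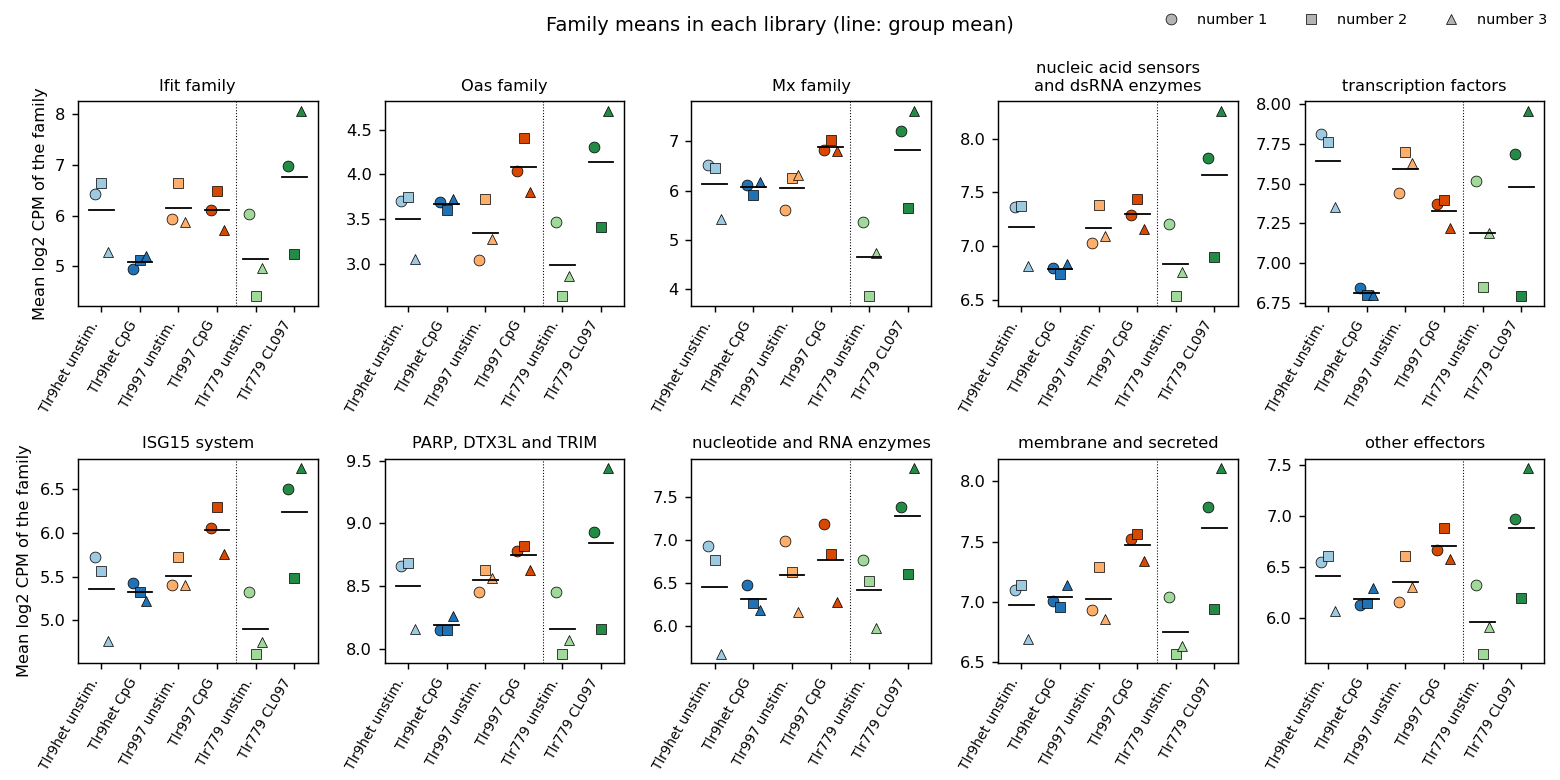
Mean log2 CPM over the tested members of each family (vertical axis, 1 panel a family) in every library of the 6 groups (horizontal axis; symbols give the replicate number, lines the group mean, and a dotted line parts the arms). With CpG the Ifit family means are 5.71 to 6.49 in Tlr997 and 4.94 to 5.20 in Tlr9het, while replicate 2 of Tlr779 with CL097 lies lowest of its group in every panel.

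With CL097 in Tlr779, 26 of 45 members were higher and 0 lower, against 22.7% and 23.6% of the 11082 genes tested in that arm, and the median change was 1.06 log2 (-0.02 over all genes). In a fit that blocks on the replicate number, 32 were higher and 0 lower, against 2646 and 2738 of the 11082 genes. The pairing by number that it assumes was inferred from correlations between same-numbered libraries of these data. For 15 members every CL097 library lay above all unstimulated ones, against 32.9% of all genes tested. The Mx genes changed most as a family, with a median of 2.18 and both called. Mx1 went from 5.41, 3.83 and 4.88 log2 CPM to 7.46, 5.84 and 7.87, above every unstimulated library, a rise of 2.35 (SE 0.56, limma adjusted p 0.0068). Isg15 went from 4.03, 3.51 and 3.52 to 6.62, 5.49 and 6.79 and rose by 2.62 (SE 0.32, limma adjusted p 0.00023), the largest change of the members. In the Oas family 5 of 6 tested members were higher, in the ISG15 system 2 of 4, among the sensors and enzymes 4 of 7, and in the Ifit family 2 of 4. Of the transcription factors 0 of 3 were called by limma, and 0 of 3 had an unadjusted p under 0.05, with Irf7 at 0.77, Stat2 at 0.16 and Irf9 at -0.03. With the block Irf7 was called (SE 0.17, limma adjusted p 0.0069), as were Herc6 and Helz2 (0.59 each) and Parp9 (0.76).

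The Ifit genes showed how far the libraries with CL097 spread. Ifit2 was at 7.95, 6.42 and 9.03 log2 CPM with CL097 and at 6.89, 5.57 and 5.77 without it. The stimulated library of replicate 2 lay below the unstimulated one of replicate 1, so the groups overlapped, and the change of 1.72 (SE 0.62) passed narrowly (limma adjusted p 0.04). Ifit1 changed by 1.69 (limma adjusted p 0.045). Ifit3 and I830012O16Rik, at 1.51 and 1.58, did not pass (limma adjusted p 0.083 and 0.13). All 4 Ifit genes were nevertheless higher with CL097 in each of the 3 same-numbered pairs, and with the block all 4 were called, Ifit3 and I830012O16Rik at limma adjusted p 0.015 and 0.013 and Ifit1 and Ifit2 at 0.0074 and 0.01. By replicate number the median change over all members was 0.75, 0.59 and 1.84, and 39, 35 and 44 of 45 rose. Summed plasmacytoid dendritic cell markers with CL097 were at 7.87, 7.63 and 8.17 (log2 of the summed CPM) for replicates 1, 2 and 3, and summed erythroid markers at 6.20, 8.92 and 7.87; their part in the spread was not tested. Of 6 B cell markers 4 were lower with CL097 and of 6 marginal zone markers 5, beside 23.6% of all genes tested. The part of these markers in the response was not tested either.

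The members that rose with CL097 included all 9 raised by CpG in both genotypes and all 9 raised in Tlr997 but not called in Tlr9het. None of the 7 lowered by CpG in both was called with CL097. These overlaps were not counted over all genes, of which 22.7% were called higher with CL097 and 23.6% lower. They are not read as particular to these members. Leaving out 1 library moved the count of 26 to 14, 36 and 15 without replicate 1, 2 or 3 with CL097, and to 25, 14 and 15 without replicate 1, 2 or 3 of the unstimulated group. Between 21.5% and 22.4% of all genes were called higher in these fits. Without replicate 3 with CL097, 2 members were called lower, beside 2658 of the 10891 genes tested. Oas1a, Oas1b, Mx1, Mx2, Ifih1, Zbp1, Isg15, Usp18, Isg20, Bst2, Lgals3bp, Ifi35, Ifi44 and Phf11b were called in all 6 of these fits. Of the others, Oasl1 lost its call without replicate 1 with CL097 or replicate 2 of the unstimulated group, at 1.40 and 1.27. Ifit1, Ifit2, Oas2, Oas3, Dhx58, Eif2ak2, Rtp4, Tor3a and Xaf1 lost it without replicate 1 or 3 with CL097 or replicate 2 or 3 of the unstimulated group, at 0.63 to 1.65, and Parp14 and Trim30a also without replicate 1 of the unstimulated group, at 0.49 to 1.03.

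Genes of the pathway around these members, on lists of ligands, receptors and kinases, induction machinery, feedback inhibitors and other interferon-stimulated genes, were read from the same fits. Of 21 interferon ligand genes only 3 passed the filter in the first arm. Not all of these would have passed without the Tlr9het libraries with CpG, so no count of calls is given for this list. Ifnb1, which encodes interferon beta, was at 1.12, 0.53 and -0.32 log2 CPM in Tlr997 with CpG and at 2.16, 1.51 and 1.64 in Tlr9het with CpG. All 3 Tlr997 values were lower. Without the Tlr9het libraries with CpG, where it was higher, Ifnb1 would not have passed the filter, so no test of this difference is given. In the 6 unstimulated libraries of that arm Ifnb1 lay between -4.90 and -3.53, near the lowest values of the files, and it passed the filter through its CpG libraries alone, so no fold or test of its CpG response is given. With CL097 it was at 0.59, -1.09 and 1.65, again lowest in replicate 2, and was not tested.

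Of the receptor and kinase genes, Ifngr1 was lower in Tlr997 with CpG. Ifngr1, a chain of the interferon gamma receptor, was at 6.27, 6.29 and 6.33 in Tlr997 and at 7.06, 7.22 and 7.29 in Tlr9het with CpG, and its difference was -0.89 (SE 0.08, limma adjusted p 2.7e-05). The type I receptor chains Ifnar1 and Ifnar2 differed by -0.09 and -0.26 without passing (limma adjusted p 0.59 and 0.20).

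Among 8 feedback inhibitors, 3 were lower in Tlr997 with CpG and 0 higher, beside 1.47% and 1.25% of all genes tested. Socs3, an inhibitor of cytokine signaling, was at 7.39, 7.53 and 8.17 log2 CPM in Tlr997 and at 9.09, 9.06 and 9.28 in Tlr9het. The groups did not overlap, and the difference was -1.45 (SE 0.22, limma adjusted p 0.0024). Socs1, which blocks the receptor kinases, was at 3.89, 4.28 and 3.91 against 4.75, 4.82 and 4.99, and the difference was -0.82 (SE 0.20, limma adjusted p 0.03). The repressor Bcl6 differed by -0.55. The call of Socs1 was lost in 5 of 6 fits without 1 library, all but the one without replicate 2 of Tlr997 (-0.95 to -0.75), and that of Bcl6 without replicate 2 or 3 of Tlr997 (-0.48 and -0.49). Usp18, which also restrains the receptor, was higher in Tlr997, as given above. Of 17 genes of the induction machinery 1 was higher, Tmem173 (the DNA-response adaptor STING), at 0.67 (SE 0.10, limma adjusted p 0.0022).

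Of the 55 tested genes on the list of other interferon-stimulated genes, 8 were higher in Tlr997 with CpG and 0 lower. Over all genes tested the shares were 1.25% and 1.47%. The median difference of the 55 genes was 0.39 log2. Ifi47, an interferon-inducible GTPase, was at 8.27, 8.36 and 7.90 log2 CPM in Tlr997 and at 6.89, 7.08 and 7.23 in Tlr9het, differing by 1.11 (SE 0.14, limma adjusted p 0.00078). Ms4a4c, Slfn9, Slfn8, Mndal, Oas1c, Ms4a6b and Nlrc5 differed by 0.97, 0.84, 0.74, 0.68, 0.66, 0.61 and 0.57. Of these 8 genes, Ifi47, Ms4a4c, Mndal and Ms4a6b kept their calls in each of the 6 fits without 1 library. Slfn9 (0.77 to 0.91) lost its call in all 6, Slfn8 (0.66 to 0.81) in all but the one without replicate 1 of Tlr997, Oas1c (0.55 to 0.82) in all but the one without replicate 3 of Tlr997, and Nlrc5 (0.47 to 0.64) without replicate 2 or 3 of Tlr997 or replicate 1 or 2 of Tlr9het. For the difference of the CpG responses, 0.687% of all genes tested were called higher and 0.853% lower. Tmem173, Irf5, Ms4a4c, Ms4a6b and Trim12c were higher there at 0.64, 0.51, 0.79, 0.75 and 0.55, and Ifngr1 and Socs1 lower at -0.93 and -1.24. Of these 7 genes Ifngr1 and Ms4a4c kept their calls in all 12 fits without 1 library; the others lost theirs in 5 to 10 of them.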

How the data were processed

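RNA of the splenic B cells was made into stranded mRNA libraries. The authors trimmed reads with Trim Galore 0.6.5, aligned them to mm10 with STAR 2.6.1a and counted them with featureCounts of Subread 2.0.1, per the labels' processing notes. The deposited values are log2 CPM, which per the paper's methods the authors normalized by quantiles with voom. Counts were not used, so depth and its counting error are unknown.

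Groups followed the sample titles. Limma 3.58.1 in R 4.3.3 was fitted with a variance trend to genes over 0 log2 CPM in at least 3 libraries, over the 12 libraries of the Tlr7-/- arm and separately over the 6 of the Tlr779 arm, without a replicate term. Where a mouse gave both an unstimulated and a stimulated library, the main tests of the responses leave that pairing out. A gene was called at a Benjamini-Hochberg adjusted p under 0.05 over all genes tested and an absolute log2 difference over 0.5. The procedure was tested on simulated data. Alternatives were a replicate block, other filters, pseudocount 1, centring, no trend, array weights, other thresholds, other sets of libraries and leaving out each library.

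Within a genotype, deviations of same-numbered libraries correlated with r of 0.51, 0.29 and 0.51 in Tlr9het and 0.25, 0.49 and 0.33 in Tlr779. Pairing by number in these 2 genotypes was inferred from those values. In Tlr997 r was 0.37, 0.08 and 0.02, and pairing is open. The rule for names took the called members, the extremes of each family, members without overlap, all members of the Ifit, Oas, Mx, transcription factor and ISG15 families, and called pathway genes with Ifnb1, Ifnar1, Ifnar2, Socs1 and Socs3; an item of the pathway lists is not reported here. With over 20 calls, it took the main families and the 5 largest of the rest. The members and all lists were chosen with earlier results of these data known. Promoters came from RefSeq (GRCm38.p6), to which all 46 members were matched, 1 through an older symbol.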

Additional observations from a re-analysis of the deposited data

Results flagged for a closer look

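The CpG response differed between the genotypes, by limma's test of the difference itself, for 5 members. The response in Tlr997 minus that in Tlr9het was 1.08 log2 for Samd9l, 0.84 for Uba7, 0.82 for Ifi203, 0.79 for Stat2 and 0.77 for Helz2. Samd9l kept its call in all 12 fits without 1 library, while Ifi203, Stat2, Uba7 and Helz2 lost theirs in 5, 6, 7 and 8 of them. With the replicate number as a block shared by the groups, the call of Helz2 was lost (limma adjusted p 0.054).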

How the results depend on the processing

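The 15 members higher in Tlr997 with CpG became 4 at a fold threshold of 1, 5 with no filter, 8 with no trend, 26 with array weights, 2 with all 18 libraries fitted together and 23 with only the groups compared. Leaving out 1 library gave 7 to 12. Of all genes, 0.27%, 0.316%, 1.0%, 2.04%, 0.882% and 1.43% were called higher in the same order, and 0.725% to 1.06% without 1 library. The 5 members of the difference of responses became 1 at a threshold of 1, 1 with no filter, 1 with no trend, 11 with array weights and 0 by limma with all 18 libraries, and 1 to 19 without 1 library. Of all genes, 0.139%, 0.141%, 0.305%, 1.58%, 0.385% and 0.288% to 1.25% were called higher there, in that order. The 26 raised by CL097 became 6 with no filter, 16 with no trend, 16 with array weights and 14 to 36 without 1 library, with 0 to 2 lower. The shares of all genes called higher were 9.68%, 22.6%, 23.1% and 21.5% to 22.4%. At a threshold of 1, 3 of the 9 members raised by CpG in Tlr9het and 3 of the 7 lowered in Tlr997 were left. Of the 11494 genes tested 2020 and 1823 were called in the same way. The cause of these shifts was not tested, beyond the smaller or larger sets of genes, samples or folds that the settings themselves impose.

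The median of the transcription factors between the genotypes with CpG lay between 0.50 and 0.68 without 1 library. In the same 6 fits Oas1a lay between -0.37 and 0.04, above 0 without Tlr997 replicate 1 or Tlr9het replicate 3 (0.02). Oasl2 lay between -0.34 and 0.55, below 0 without Tlr997 replicate 1 or 2 or Tlr9het replicate 1. Ifih1 lay between -0.02 and 0.18, below 0 without Tlr997 replicate 2. Rsad2 (-0.24 to 0.69) and Ly6e (-0.05 to 0.15) were below 0 without Tlr997 replicate 1. The replicate block gave 18 members (beside 1.35% of all genes) higher in Tlr997 with CpG, 6 (0.809%) for the difference of responses and 32 (23.9%) with CL097. As a block within genotype it gave 10 (1.39%) for the difference of responses. The members whose calls it changed are named in the report, beside Helz2 above, and it changed no other call of a member except that, shared by the genotypes, it added Ddx58 and Parp9 to the difference of responses. A comparison with only the groups compared was not run for the difference of responses or for CL097. Depth is unknown, so no counting error could be given.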
